A study of Mus musculus with 10 samples.

Results

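The proximal beta protocadherins are the 10 genes Pcdhb2 to Pcdhb11, taken by their symbols from a table of 52632 genes counted in mouse neural stem cell cultures. Poly(A) RNA had been sequenced from adherent cultures of the cortex of single embryos at embryonic day 14.5, kept in medium with EGF and FGF. The embryos either carried a GFP-tagged SMCHD1 allele with the E147A change beside a normal allele (Smchd1GFP-E147A/+, written E147A/+ here) or were Smchd1+/+ (written +/+). SMCHD1 is a chromatin protein of the SMC family that represses the inactive X chromosome and several autosomal gene clusters, and E147A lies in its ATPase domain. There were 2 female E147A/+ libraries, 2 female +/+, 3 male E147A/+ and 3 male +/+, and the comparison of genotypes asks how cultures with the mutant allele differ from those without it.

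All females also carried the XistdeltaA allele on 1 X chromosome (XistdeltaA/+), whatever their Smchd1 genotype, and males were XY. Every embryo was described as having a Castaneus (Cast) father and a mother that was an F1 of 129 and C57, so a maternal copy can be of either strain although the deposited columns are named 129. Litters 1 and 2 each gave 1 female E147A/+ embryo and litter 3 gave both female +/+ embryos, so genotype and litter cannot be told apart in females. The male E147A/+ embryos came from litters 1, 1 and 3 and the male +/+ embryos from litters 4, 1 and 3. The mutant allele carried the GFP tag and the normal allele did not, so the effects of tag and mutation cannot be told apart either.

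Clustered protocadherins are cell-surface adhesion proteins of the nervous system, encoded in neighbouring alpha, beta and gamma arrays. Each beta gene has its own promoter and an undivided coding exon, whereas alpha and gamma genes splice a variable exon to constant ones. A neuron switches on a small choice of these promoters, which depends on CTCF, cohesin, DNA methylation and contact with distant enhancers, and the combination displayed lets neurites of the same cell recognise and avoid each other. The clusters are known targets of SMCHD1.

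Total counts per library ran from 20648916 in male +/+ replicate 2 to 44519020 in female E147A/+ replicate 2. Levels are given as CPM, the usual scaling of counts to library size, with TMM factors. Smchd1 itself, whose mutation cannot be read from gene counts, had 94.2 to 128 CPM in the 5 E147A/+ libraries and 122.5 to 191.8 in the 5 +/+ libraries, a log2 difference of -0.42 (SE 0.16) with an edgeR adjusted p of 0.786 (quasi-likelihood test). Around Smchd1 the median Cast share was 0.110% and 0% in the 2 female E147A/+ libraries but 48.5% and 50.9% in the 2 female +/+ ones, so strain and genotype cannot be told apart for it in females. The label of neural stem cells was checked against Nes, with 623 to 1007 CPM in E147A/+ and 546 to 1125 in +/+, and against Sox2, with 178 to 207 and 180 to 238. Against the labels, which place a Cast copy at every autosomal locus, 2 of the 4 female libraries showed no Cast copy around the protocadherin array. Among genes within 5 Mb with at least 20 allelic counts, the median Cast share was 48.0% in E147A/+ replicate 2 and 47.0% in +/+ replicate 1. It was 0.321% in E147A/+ replicate 1 and 0.314% in +/+ replicate 2, and these are treated as not heterozygous here.

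The 10 genes lie in array order on the plus strand of chromosome 18 (GRCm38), from the start of Pcdhb2 at 37294812 to the end of Pcdhb11 at 37425836, a span of 131025 bp. All 10 are protein-coding in the GENCODE M21 annotation, with 1 exon in the main transcript, and matched the deposited identifiers. Pcdhb2 (ENSMUSG00000051599) lies at 37294812 to 37297624, Pcdhb3 (ENSMUSG00000045498) at 37300799 to 37304585 and Pcdhb11 (ENSMUSG00000051486) at 37421418 to 37425836. The gaps between neighbours ranged from 2869 bp to 42250 bp, the widest of them before Pcdhb9. Coding sequences were 73.75% to 89.81% identical over 45 pairs (median 76.77%), and the closest pairs were Pcdhb7 with Pcdhb9 (89.81%) and Pcdhb6 with Pcdhb8 (89.72%). Because reads of near-identical copies could be split between genes, exact 80-base windows of each gene were sought in the transcripts of other genes. Between 0% (Pcdhb2) and 3.397% (Pcdhb6) of a gene's windows occurred in another, so the share of ambiguous single reads by exact match was small for every member.

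All 10 members had higher mean levels in E147A/+ than in +/+ cultures in both sexes, and 3 of them, Pcdhb2, Pcdhb3 and Pcdhb11, rose past an adjusted p of 0.05 in edgeR, as 0.0468% of all genes tested did. With litter as a covariate 0 of the 10 passed, and the log2 fold changes of these 3 were 2.18, 2.21 and 2.90. Each member encodes a beta protocadherin of the same build, so they are described by their place along the array. The summed level of the 10 genes was 52.7 and 54.3 CPM in female E147A/+ and 18.1 and 17.0 in female +/+. In males the sum was 60.2, 61.3 and 74.0 CPM in E147A/+ and 28.1, 12.9 and 22.8 in +/+. The lowest E147A/+ library of either sex thus stood above the highest +/+ library, male replicate 1. These are bulk cultures, so more RNA per cell and more cells that use these genes cannot be told apart. In the same comparison 3 of 8 markers of the oligodendrocyte lineage, Gpr17, Pdgfra and Sox10, were lower at an unadjusted p of 0.05 in edgeR. Pdgfra and Sox10 were named after their values were seen, and 2 of the 8 had log2 fold changes above 0. At that cut 1 of 10 neural stem cell and 1 of 8 neuronal markers were higher, as 3.05% of all genes were. Of 4 endothelial markers 1 was lower. The share of all genes lower is not given here, and the part of these markers in the protocadherin differences was not tested.

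Pcdhb11, the last of the series, had the largest difference. Its level was 13.7 and 10.9 CPM in female E147A/+ against 2.45 and 2.06 in female +/+. In males it was 16.0, 12.9 and 12.2 against 3.38, 1.27 and 2.19. No E147A/+ library came near a +/+ library, and over both sexes the gene was 5.70-fold higher (log2 fold change 2.51, SE 0.29, edgeR adjusted p 0.0164). With litter as a covariate the log2 fold change was 2.90, and the edgeR adjusted p of 0.226 did not pass.

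Pcdhb3 had 5.17 and 4.67 CPM in female E147A/+ and 0.955 and 1.26 in female +/+. Male levels were 4.42, 6.19 and 5.62 in E147A/+ and 1.62, 1.22 and 1.22 in +/+. All 5 libraries with the mutant allele lay above the other 5, a 4.203-fold difference (2.07 on the log2 scale, SE 0.26, edgeR adjusted p 0.0195). With litter as a covariate the log2 value was 2.21 (edgeR adjusted p 0.524). Pcdhb2, at the start of the series, had 5.68 and 4.81 CPM against 1.50 and 1.05 in females, and 6.32, 5.39 and 5.25 against 1.93, 1.127 and 1.18 in males. The genotypes did not overlap for it either, and the difference was 4.05-fold (2.02 on the log2 scale, SE 0.28, edgeR adjusted p 0.0334). With the litter covariate its log2 value was 2.18 (edgeR adjusted p 0.524).

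Pcdhb10, next to Pcdhb11, showed a difference of similar size that did not pass, 3.87-fold or 1.95 on the log2 scale (SE 0.36, edgeR adjusted p 0.172). Female levels were 4.50 and 5.78 CPM in E147A/+ and 1.05 and 1.75 in +/+, and male levels were 6.43, 4.82 and 4.39 against 1.03, 0.704 and 2.06. The genotypes were apart in all libraries, and male replicate 3 had the highest +/+ level.

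Without litter in the model, the members from Pcdhb4 to Pcdhb9 had smaller differences than the other 4. Their log2 fold changes over both sexes were 1.34 (SE 0.28) for Pcdhb4, 1.45 (SE 0.40) for Pcdhb5 and 0.92 (SE 0.40) for Pcdhb6. They were 1.01 (SE 0.26) for Pcdhb7, 1.23 (SE 0.34) for Pcdhb8 and 1.22 (SE 0.40) for Pcdhb9, and none of these 6 passed (edgeR adjusted p 0.265 to 0.821). With litter as a covariate the value moved to 2.14 for Pcdhb5, 1.57 for Pcdhb6 and 1.90 for Pcdhb9, and Pcdhb5 was then above Pcdhb10 (2.09). Pcdhb4 had 3.86 to 5.12 CPM in the 5 E147A/+ libraries (median 4.96) and 1.46 to 3.04 in the 5 +/+ libraries (median 1.79). Pcdhb8 had 3.35 to 7.65 (median 4.59) and 1.17 to 3.242 (median 1.88), so both of these genes separated the genotypes.

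In the remaining 4 genes the genotypes overlapped. Pcdhb5 had 5.84 to 12.4 CPM in E147A/+ (median 8.71) and 1.41 to 5.93 in +/+ (median 3.15), and Pcdhb7 had 4.00 to 9.37 (median 5.38) and 2.18 to 4.35 (median 2.68). In both genes the +/+ library inside the E147A/+ range was male replicate 1. Pcdhb6 had the smallest difference, with 3.42 and 5.25 CPM in female E147A/+ and 2.99 and 2.77 in female +/+. In males it had 2.63, 4.82 and 9.74 against 2.97, 1.31 and 2.94, so male E147A/+ replicate 1 lay below every +/+ library except male replicate 2, while replicate 3 was far above them. Pcdhb9, the least abundant member, had 1.39 and 1.29 CPM against 0.541 and 0.565 in females, and 1.63, 1.24 and 2.29 against 0.621, 0.376 and 1.28 in males. Its overlap came from male +/+ replicate 3, and its counts were as low as 8 in a library, which limits the precision of this gene.

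**Figure D1:**
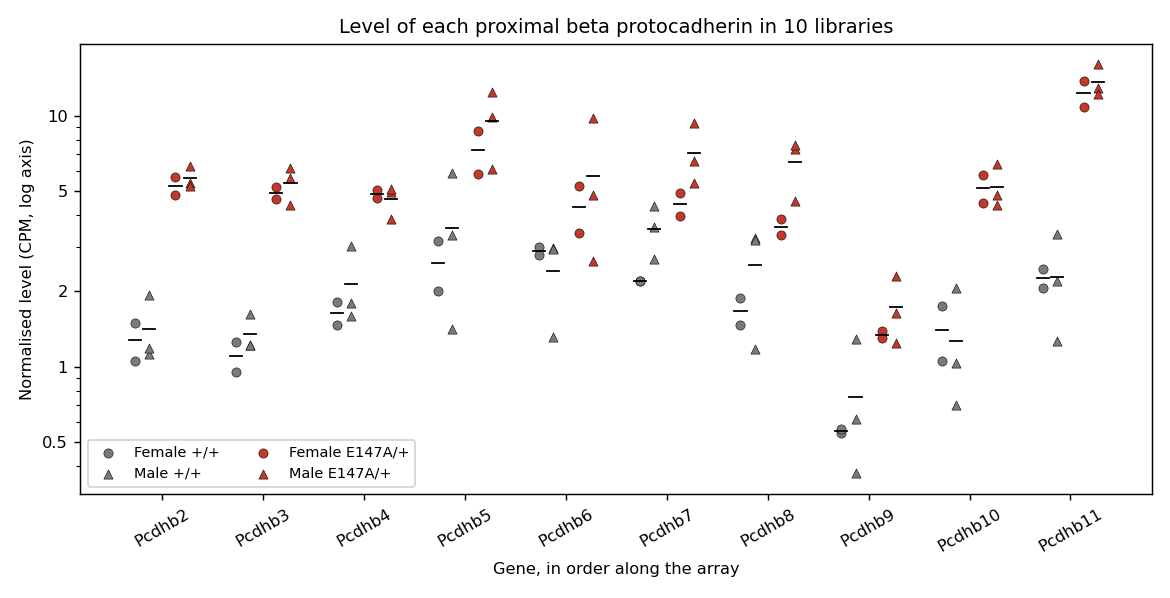
Level of each of the 10 genes in CPM (log axis), in array order, with 1 point per library, circles for females, triangles for males, grey for +/+ and red for E147A/+, and a short line at the mean of each group. Pcdhb11 rose from at most 3.38 CPM in +/+ to at least 10.9 in E147A/+, whereas the 2 genotypes overlap in Pcdhb5, Pcdhb6, Pcdhb7 and Pcdhb9.

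The plot of levels by gene shows every library, from litters that are not balanced between the genotypes. By the criterion of an adjusted p of 0.05 over all 17110 genes tested, 3 of 10 members were higher. All 10 members had passed the filter on low counts. At an unadjusted p of 0.05 the counts were 10 of 10 members and 3.05% of genes, and for no overlap between the 5 E147A/+ and the 5 +/+ libraries they were 6 of 10 and 0.695%. The median log2 fold change was 1.40 over the members and -0.01 over all genes tested, and 10 of 10 members against 48% of genes had a value above 0. DESeq2, the other count model used, called 8 of 10 members (all but Pcdhb6 and Pcdhb9), where it called 0.66% of genes. In edgeR the count was 0 with litter as a covariate, and it was also 0 when any of the 4 female libraries, male E147A/+ replicate 1 or male E147A/+ replicate 2 was left out. It was 1 (Pcdhb11) without male E147A/+ replicate 3, male +/+ replicate 2 or male +/+ replicate 3, and 3 without male +/+ replicate 1. With litter as a covariate the log2 fold changes of Pcdhb2, Pcdhb3 and Pcdhb11 were 2.18, 2.21 and 2.90, against 2.02, 2.07 and 2.51 without it. With any 1 library left out they were at least 1.90, 1.99 and 2.37. The fit with litter left fewer residual degrees of freedom than the 6 of the main fit. In it the only libraries of litters 2 and 4 did not inform the genotype difference. Its female part took the difference between litters 1 and 3 from males alone.

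Females and males gave the difference separately. In females the log2 fold changes ran from 0.59 (Pcdhb6) to 2.45 (Pcdhb11), with a median of 1.54, and in males from 1.00 (Pcdhb7) to 2.58 (Pcdhb11), with a median of 1.38. With litter as a covariate Pcdhb6 had 1.54 in females, and Pcdhb9 moved there from 1.27 to 2.42. For E147A/+ these female values rest on replicate 1 alone, because replicate 2 was the only library of litter 2. The difference between litters 1 and 3 was taken from males alone, so litter and genotype still cannot be told apart in females. Without male E147A/+ replicate 3, Pcdhb6 moved from 1.245 to 0.62 in males, and Pcdhb7 had 0.75. In edgeR 0 of 10 members passed in females, where 0.00584% of genes were called higher, and 0 of 10 in males, where 0.0117% were. At an unadjusted p of 0.05 there were 7 in females (all but Pcdhb6, Pcdhb8 and Pcdhb9), where 2.7% of genes were higher, and 10 in males, where 1.62% were. The count in males was 7 without male E147A/+ replicate 3. DESeq2 called 4 in females (Pcdhb2, Pcdhb3, Pcdhb4 and Pcdhb11; 0.269% of genes) and 4 in males (Pcdhb2, Pcdhb3, Pcdhb10 and Pcdhb11; 0.281%). The E147A/+ and +/+ libraries did not overlap for 10 of 10 members in females, where 21.8% of genes were higher without overlap, and for 8 of 10 in males, where 3.2% were.

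The difference between the sexes was tested itself, as an interaction of sex and genotype. It was 0 of 10 members past the threshold in edgeR, against 0% of genes, and 0 members at an unadjusted p of 0.05, against 1.84% of genes. DESeq2 also called 0 members, against 0.0117% of genes. The female minus male differences in log2 fold change ran from -0.66 (Pcdhb6, SE 0.80) to 0.46 (Pcdhb4, SE 0.54), with SEs of 0.49 to 0.80 over the 10 genes, so a sex difference of that size could not be resolved.

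Only males allowed a comparison within litters. In litter 1, with 2 E147A/+ libraries and 1 +/+ library, the ratio of mean levels was above 1 for 10 of 10 members and 51% of genes tested, from 2.24 (Pcdhb7) to 11.4 (Pcdhb11), with a median of 4.72. In litter 3, with 1 library of each genotype, it was above 1 for 10 of 10 members and 46.9% of genes, from 1.79 (Pcdhb9) to 5.55 (Pcdhb11), with a median of 3.09. Pcdhb11 had the largest ratio in both litters. Single libraries give these ratios no error of their own.

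**Figure D2:**
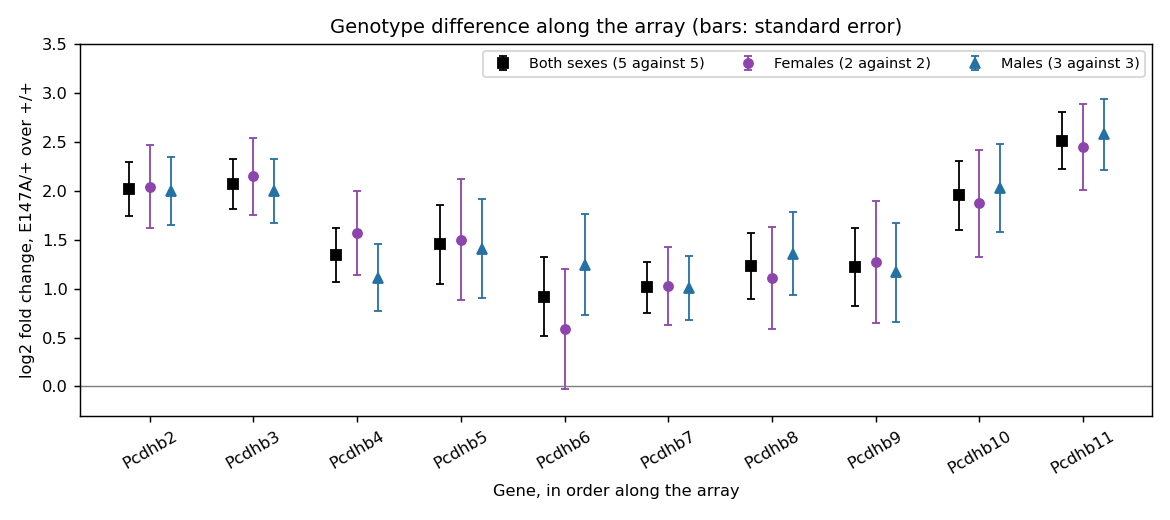
The log2 fold change of E147A/+ over +/+ for each gene in array order, over both sexes (black squares), in females (purple circles) and in males (blue triangles), with bars of 1 standard error. Without litter in the model, as plotted, values are highest for Pcdhb2, Pcdhb3, Pcdhb10 and Pcdhb11 in all 3 comparisons. With litter as a covariate Pcdhb11 stays highest, but Pcdhb5 passes Pcdhb10 over both sexes and Pcdhb3 and Pcdhb10 in males. Pcdhb9 then passes Pcdhb2, Pcdhb3 and Pcdhb10 in females. That female order rests on 1 E147A/+ library and on a difference between litters 1 and 3 taken from males alone.

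Along the array the genotype difference did not change in 1 direction. The plot of fold change by array order shows about 2 on the log2 scale for the first 2 genes, 0.92 to 1.45 for the 6 that follow, and 1.95 and 2.51 for the last 2. This split was much smaller with litter as a covariate, where the first 2 genes had 2.18 and 2.21, the 6 that follow 1.49 to 2.14, and the last 2 had 2.09 and 2.90. Within litters it did not hold either, since in litter 1 the ratio of Pcdhb5 (5.69) was above those of Pcdhb2 (5.20) and Pcdhb3 (4.35), and in litter 3 that of Pcdhb10 was below those of Pcdhb4 to Pcdhb8. Without litter in the model, Spearman's rho between array order and log2 fold change over the 10 genes was -0.067 over both sexes, -0.067 in females and 0.20 in males. It was -0.103 with the GC content of the transcript and -0.418 with the level per kb in +/+. These are descriptions of 10 genes measured in the same libraries.

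The order of the members by level differed between the genotypes. Per kb of exon, the highest in +/+ were Pcdhb5 (0.896 ± 0.492 CPM per kb, SD, n = 5), Pcdhb7 (0.858 ± 0.271) and Pcdhb6 (0.692 ± 0.192), and Pcdhb11 was sixth with 0.514 ± 0.172. The lowest was Pcdhb9 with 0.222 ± 0.115. In E147A/+, Pcdhb11 was highest with 2.97 ± 0.433 CPM per kb, followed by Pcdhb5 (2.43 ± 0.775), Pcdhb2 (1.95 ± 0.200) and Pcdhb10 (1.82 ± 0.310). Pcdhb9 was again lowest with 0.514 ± 0.142. Neighbours in either order differed by less than the larger of their SDs, apart from Pcdhb9 in E147A/+, whose distance from Pcdhb4 (1.27 ± 0.139) was larger than both.

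As a share of the summed CPM of the 10 genes, Pcdhb11 made up 16.4% to 26.6% in the E147A/+ libraries (mean 22.0%) and 9.62% to 13.5% in the +/+ libraries (mean 11.4%), without overlap. The other 9 shares overlapped between the genotypes. The mean share was higher in E147A/+ for Pcdhb2 (9.20% against 7.05%), Pcdhb3 (8.69% against 6.65%) and Pcdhb10 (8.73% against 6.85%), and lower for the other 6. Pcdhb6 made up 4.36% to 13.2% (mean 8.31%) against 10.2% to 16.5% (mean 13.3%), and Pcdhb7 7.37% to 12.7% (mean 9.81%) against 12.1% to 20.8% (mean 15.4%).

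Over the 10 libraries the members varied together. Pearson's r of log2 CPM between 2 members was 0.615 to 0.989 over 45 pairs (median 0.836), highest for Pcdhb2 with Pcdhb11. All pairs share the libraries and the genotype groups. With the mean of each sex and genotype group removed, r was -0.215 to 0.907 (median 0.46), and 39 of 45 pairs were positive.

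The female libraries allowed the level of each parental copy to be followed, because some reads had been assigned to the 129 or the Cast allele. A Cast copy could be measured in 1 library of each genotype, E147A/+ replicate 2 and +/+ replicate 1, so the alleles are compared between 2 single libraries, without a test, and intervals cover counting error only. Summed over the 10 genes, the E147A/+ library had 794 counts from 129 and 780 from Cast (49.6% Cast, 95% Wilson interval 47.1 to 52.0). The +/+ library had 183 and 185 (50.3%, 45.2 to 55.4). Scaled to library size, the 129 sum was 18.35 against 5.83 CPM, a ratio of 3.15 (exact 95% interval 2.68 to 3.72), and the Cast sum was 18.03 against 5.89 CPM, a ratio of 3.06 (2.60 to 3.61). Both copies of the array thus gave about 3 times as many counts in the E147A/+ library.

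Gene by gene, both alleles were higher in the E147A/+ library for 10 of 10 members, as they were for 36.2% of 2766 genes in regions heterozygous in both libraries. The 129 ratio was at least 2 for 8 members, where it was for 7.2% of 2946 such genes, and its median was 3.31. The Cast ratio was at least 2 for 8 members, where it was for 8.57% of 2918 genes, and its median was 3.05. Both ratios reached 2 in 6 members (Pcdhb2, Pcdhb3, Pcdhb5, Pcdhb9, Pcdhb10 and Pcdhb11), where they did in 3.04% of 2766 genes. The Cast ratio was the higher one in 5 of the 10.

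Pcdhb2 had 87 counts from 129 in the E147A/+ library against 27 in +/+ (ratio 2.34, exact 95% interval 1.50 to 3.75), and 91 against 17 from Cast (3.89, 2.30 to 6.96). Pcdhb3 had 68 against 6 from 129 (8.23, 3.59 to 23.2) and 108 against 19 from Cast (4.13, 2.52 to 7.12). Pcdhb11 had 249 against 54 from 129 (3.35, 2.49 to 4.58) and 125 against 8 from Cast (11.3, 5.58 to 26.9). Each of the 3 genes called over both sexes was therefore higher on both copies, and in Pcdhb11 the intervals of the 2 ratios did not overlap, the Cast ratio being the larger.

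The other members with both ratios of at least 2 were Pcdhb5, Pcdhb9 and Pcdhb10. Pcdhb5 had ratios of 4.36 (2.46 to 8.31) for 129 and 2.61 (1.98 to 3.46) for Cast, and Pcdhb10 of 4.52 (2.50 to 8.86) and 3.19 (1.18 to 10.8). Pcdhb9 had 36 against 8 counts from 129 and 24 against 1 from Cast, with ratios of 3.27 (1.49 to 8.14) and 17.4 (2.84 to 716.5), so the size of the latter is almost undetermined.

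In the remaining 4 members only 1 of the alleles reached a ratio of 2. Pcdhb4 had 29 against 1 counts from 129 (ratio 21.1, 3.49 to 859.9) and 31 against 18 from Cast (1.25, 0.678 to 2.37). Pcdhb8 likewise had the larger ratio for 129, at 2.41 (1.57 to 3.82) against 1.29 (0.703 to 2.44) for Cast. Pcdhb6 and Pcdhb7 had it for Cast, at 2.29 (1.45 to 3.76) and 2.90 (1.16 to 8.69), against 1.60 (0.922 to 2.86) and 1.39 (0.665 to 3.07) for 129. Apart from Pcdhb4, the intervals of the 2 alleles overlapped in these genes, so a difference between the copies was not detectable at this depth.

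**Figure D3:**
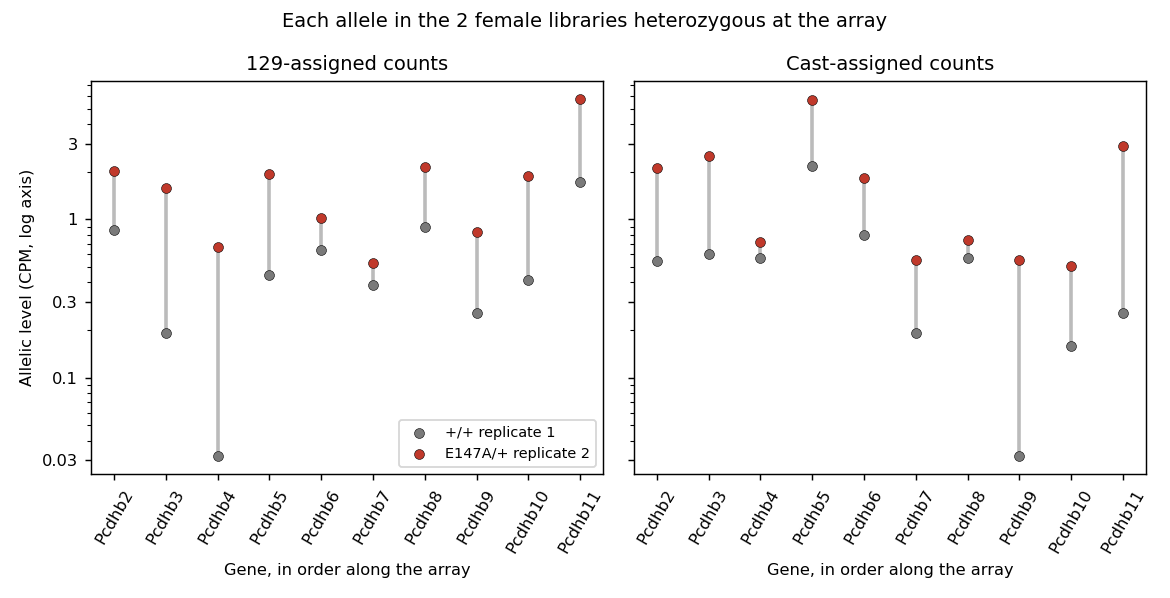
CPM assigned to the 129 allele (left) and to the Cast allele (right) for each gene on a log axis, in the female E147A/+ library (red) and the female +/+ library (grey) that were heterozygous at the array, joined by a line. The red point is above the grey one for both alleles of all 10 genes. The lowest points, for Pcdhb4 on 129 and Pcdhb9 on Cast, are 1 count each.

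The plot of allelic levels shows members with unequal 129 and Cast counts. Whether this is unequal use of the copies or unequal assignment of reads by gene was not tested. In the +/+ library the Cast share of a gene's allelic counts ran from 11.1% (Pcdhb9) to 94.7% (Pcdhb4), with 3 intervals above 50% and 2 below. In the E147A/+ library it ran from 21.4% (Pcdhb10) to 74.4% (Pcdhb5), with 3 intervals above 50% and 3 below. The sums near 50% thus held skewed single genes. Pcdhb5 was mostly Cast in both libraries (74.4%, 69.4 to 78.8, and 82.9%, 73.4 to 89.6), and so was Pcdhb3 (61.4%, 54.0 to 68.2, and 76.0%, 56.6 to 88.5). Pcdhb11 was mostly 129 in both, with 33.4% Cast (28.8 to 38.4) in E147A/+ and 12.9% (6.69 to 23.5) in +/+. Its 2 intervals did not overlap, nor did those of Pcdhb4 (51.7%, 39.3 to 63.8, against 94.7%, 75.4 to 99.1), whereas those of the other 8 members did.

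Reads were also given to Cast in the 2 libraries without a Cast copy, which gives the background of the Cast columns. Its source was not tested, and reads of a Cast copy given to 129 could not be measured. They were 76 of the members' allelic counts against 1283 from 129 in E147A/+ replicate 1 (5.59%, 4.49 to 6.94), and 26 against 334 in +/+ replicate 2 (7.22%, 4.98 to 10.4). By gene the share was up to 24.1% (Pcdhb4) in the former and up to 19.5% (Pcdhb5) in the latter, but 0.685% and 1.61% for Pcdhb11. The Cast share of Pcdhb9 was 40.0% (28.6 to 52.6) in the heterozygous E147A/+ library and 11.1% (1.99 to 43.5) in the +/+ one, and both intervals overlapped those of the background, which was 22.5% (12.3 to 37.5) in E147A/+ replicate 1 and 18.2% (5.14 to 47.7) in +/+ replicate 2. In the heterozygous +/+ library the interval of Pcdhb7 (33.3%, 16.3 to 56.3) overlapped its background (up to 32.8), and that of Pcdhb11 (6.69 to 23.5) overlapped the background in +/+ replicate 2 (1.61%, 0.285 to 8.59). In the heterozygous E147A/+ library that of Pcdhb8 (25.6%, 18.8 to 33.9) overlapped the background in +/+ replicate 2 (8.89%, 3.51 to 20.7). The Cast ratios of these 4 genes carry this limit. For Pcdhb9 the allelic counts of E147A/+ replicate 2 also exceeded its total count, with 60 against 56, so totals and allelic values were not counted in the same way.

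**Figure D4:**
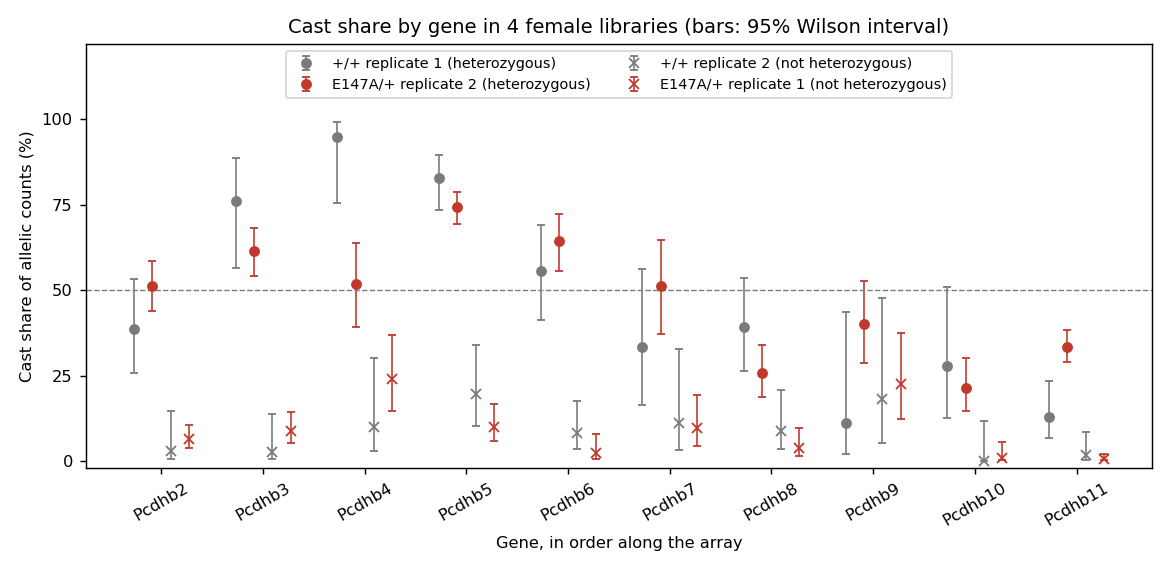
Cast share of allelic counts (percent, with 95% Wilson intervals) for each gene in the 4 female libraries. Dots are the libraries heterozygous at the array and crosses those that were not, with red for E147A/+, grey for +/+ and a dashed line at 50%. Dots spread widely around 50%, and crosses, which show the background of the Cast columns, lie between 0% and 24.1%.

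The plot of Cast shares sets this background beside the measured shares. The libraries without a Cast copy also gave a second pair for the 129 columns. The ratio of E147A/+ replicate 1 to +/+ replicate 2 was at least 2 for 9 of 10 members, where it was for 12.3% of 5042 genes. It ran from 1.36 (Pcdhb6, exact interval 0.960 to 1.93) to 6.41 (Pcdhb11, 4.90 to 8.53), with a median of 3.08. Summed over the members the ratio was 3.45 (3.06 to 3.91), from 29.6 against 8.58 CPM.

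The 129 columns of all 4 female libraries were tested together in edgeR. Of the 10 members 0 passed an adjusted p of 0.05, where 0% of 13192 genes did, and 6 had an unadjusted p under 0.05, where 5.32% of genes were higher. The log2 fold changes ran from 0.51 (Pcdhb6, SE 0.68) to 2.26 (Pcdhb11, SE 0.51, adjusted p 0.616). Of these libraries 2 have 129 counts from both copies and 2 from the non-Cast copy only. Each genotype holds 1 of each kind, so the spread within a genotype includes that difference.

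The rest of the beta array was compared as a list of Pcdhb1 and Pcdhb12 to Pcdhb22, which encode the same kind of adhesion protein. Of these 12, 11 were tested, and 1 of 11 rose past the threshold, where 0.0468% of all genes did. It was Pcdhb12, the gene that follows Pcdhb11 (37435621 to 37438654, log2 fold change 2.46, SE 0.31, adjusted p 0.0208 in edgeR). At an unadjusted p of 0.05, 11 of 11 were higher, as 3.05% of all genes were. DESeq2 called 5 of 11 higher, where it called 0.66% of genes in either direction. All 11 had log2 fold changes above 0, from 0.72 to 2.46 with a median of 1.20, against 1.40 for the proximal genes. Pcdhb1, the first beta gene, was not tested, with 0 counts in all +/+ libraries and at most 3 in an E147A/+ library. Whether the proximal and the distal genes differ was not tested.

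Genes with a known part in protocadherin promoter choice or silencing (CTCF, cohesin and its loaders, DNA methyltransferases, H3K9 methylation factors and SMCHD1 partners) gave 0 of 20 past the threshold in edgeR and in DESeq2 and 0 at an unadjusted p of 0.05. Their median log2 fold change was -0.05. Signalling partners, the kinases and actin regulators that act below protocadherins, gave 0 of 13 tested in edgeR and DESeq2 and 0 at an unadjusted p of 0.05, with a median of -0.12. Genes around the clusters that are not clustered protocadherins, a list that includes the non-clustered Pcdh1 and Pcdh12, gave 0 of 18 tested in edgeR. Of these 18, 1 was lower at an unadjusted p of 0.05 in edgeR and 1 was lower in DESeq2, with a median of -0.02.

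The genes whose log2 CPM over the 10 libraries was most like the mean of the members were Trp53cor1 (Pearson's r 0.980), Pcdhb12 (0.960), Pcdhb18 (0.939), Pcdha1 (0.937) and Pcdha4 (0.935). These values describe 10 libraries that differ by genotype. Among the 50 most alike of 17100 genes compared, 18 were clustered protocadherins, of which 10 were alpha, 8 were other beta genes and 0 were gamma. How many genes of each array were compared is not given here, so these counts have no share beside them. Trp53cor1, a long noncoding RNA gene known as a p53 target, lies outside the family on chromosome 17 at 29057430 to 29079179, and differed by 0.91 on the log2 scale (SE 0.19, edgeR adjusted p 0.267). Around it the median Cast share was 1.11% and 0.474% in the 2 female E147A/+ libraries but 49.2% and 49.8% in the 2 female +/+ ones, so genotype and strain cannot be told apart for this gene in females.

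Markers of cell types that a cortical culture could hold were read beside these results. Of 10 neural stem cell markers 0 passed in edgeR, and their summed level was 4954 to 6851 CPM in E147A/+ and 4767 to 6631 in +/+. Of these 10, 1 was higher over both sexes at an unadjusted p of 0.05 in edgeR, as 3.05% of all genes were. In males 2 of the 10 were higher at that cut, as 1.62% of all genes were, and 2 were lower. Their log2 fold changes in males ran from -1.60 to 0.61, and in females 0 of the 10 reached the cut. For 8 neuronal markers, of which 0 passed, the summed level was 569 to 771 and 619 to 1036, most of it from Map2. At an unadjusted p of 0.05 in edgeR 1 of the 8 was higher, as 3.05% of all genes were. Of the 8, 3 had log2 fold changes above 0, the largest 1.36 over both sexes and 2.14 in females. For 5 astrocyte markers, with 0 passing, the summed level was 178 to 298 and 227 to 287. Of 8 oligodendrocyte lineage markers 1 was lower, Gpr17, a receptor of oligodendrocyte precursors, with 0 to 0.134 CPM in E147A/+ and 0.955 to 4.62 in +/+ (log2 fold change -4.98, adjusted p 0.0249 in edgeR). DESeq2 called 2 of the 8 lower, where it called 0.66% of all genes in either direction. In edgeR 3 of the 8 were lower at an unadjusted p of 0.05, and the share of all genes lower is not given here. The others of these 3, named after their values were seen, were Pdgfra, a growth factor receptor of the precursors, and Sox10, a transcription factor of the lineage. Pdgfra had 2.84 to 24.0 CPM in E147A/+ (median 10.7) and 14.0 to 85.0 in +/+ (median 47.2). Sox10 had 0.439 to 6.45 CPM (median 5.87) and 2.83 to 32.6 (median 16.1). Both overlapped between the genotypes and did not pass (edgeR adjusted p 0.249 for Pdgfra and 0.727 for Sox10). The whole list summed to 1359 to 2019 CPM in E147A/+ and 1868 to 2043 in +/+, most of it from Olig1 and Olig2. Microglial markers summed to at most 2.84 CPM, endothelial to at most 3.75 and mesenchymal to at most 23.1 in any library, with 0 of the 10 of these markers that were tested passing in edgeR (1 of 6 microglial markers was tested). Of 4 endothelial markers 1 was lower at an unadjusted p of 0.05 in edgeR. Of the microglial list, P2ry12, the member tested, reached 82 counts in a library (2.77 CPM), and the other 5 had at most 6.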

How the data were processed

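The deposited table holds raw counts of 10 libraries and, in the 4 female ones, also the counts given to 129 or Cast alleles by the authors. Per the submitters' processing notes, Trim Galore 0.4.4, HISAT2 2.0.5, featureCounts, R 3.5.1 and edgeR 3.24.0 were used with GRCm38 (mm10). Libraries were stranded with 80 bp paired reads, per the labels' protocols. The strand setting and how alleles were assigned are not given in the sources used here.

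Labels gave each library its sex and genotype. The 10 genes, the other lists and the tests were chosen with earlier results of these data known. All 10 genes are named, with Smchd1, the 5 genes most alike by Pearson's r, and listed genes past the threshold. Genes kept by filterByExpr (17110) were TMM-scaled, and edgeR 4.0.16 (R 4.3.3) ran the quasi-likelihood F test with 1 mean per group over all 10 libraries (6 residual degrees of freedom), with Benjamini-Hochberg adjustment over all genes tested. Each standard error is the size of a log2 fold change over the square root of F. A library was taken as heterozygous at the array where the median Cast share within 5 Mb was 35% to 65%. Ratios of allelic counts have exact conditional intervals, scaled by effective library size. With 1 heterozygous library per genotype, tests of Cast counts and of allelic balance had no residual degrees of freedom and were not fitted. Alternatives were RLE scaling, DESeq2 1.42.0, limma-voom (limma 3.58.1), no filter, at least 10 counts in every sample, only 1 sex, litter as a covariate, a replicate block and leaving out each library. Sequence comparisons used GENCODE M21 and Biopython 1.88. The tests were checked on simulated counts, whose results are not given here.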

Additional observations from a re-analysis of the deposited data

Results flagged for a closer look

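Of 20 groups of 5 libraries (10 genes in 2 genotypes), 3 held a library whose gap to the nearest other exceeded Dixon's 95% value of 0.71 of the group's range. Chance flags about 1 in 20 such groups, and the 3 fall in +/+ males. Pcdhb4 was high in male +/+ replicate 1 at 3.04 CPM, against 1.46 to 1.82 in the other 4 +/+ libraries. Pcdhb6 was low in male +/+ replicate 2, the library with the lowest total count, at 1.31 CPM against 2.77 to 2.99. Pcdhb9 was high in male +/+ replicate 3 at 1.28 CPM against 0.376 to 0.621.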

How the results depend on the processing

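The log2 fold changes of the 10 genes over both sexes, in females and in males were above 0 under all of 557 alternative values, of which 510 kept their side of the threshold, 33 lost it, 14 gained it and 0 reversed. Over both sexes they ran from 2.37 to 2.90 for Pcdhb11, from 1.90 to 2.18 for Pcdhb2, from 1.99 to 2.21 for Pcdhb3 and from 0.60 to 1.57 for Pcdhb6. The number of genes called depended on the setting. Of 10 members, 3 passed over both sexes with RLE scaling, limma-voom, no filter and at least 10 counts in every sample (9 tested then, without Pcdhb9), and these were the same 3 genes. DESeq2 called 8 over both sexes, 4 in females and 4 in males, against 3, 0 and 0 in edgeR. Without a filter 1 gene, Pcdhb11, passed in males. With litter as a covariate 0 passed over both sexes. Leaving out each library in turn gave 0 to 3 over both sexes and 0 in females, in males, for the interaction and for the 129 counts. Over these fits the adjusted p of Pcdhb11 over both sexes was 0.00932 to 0.155, that of Pcdhb2 0.0398 to 0.276 and that of Pcdhb3 0.0398 to 0.169. Where this left 1 library in a group, that library was assumed to vary like the others.

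The replicate numbers name different embryos. Deviations from the group means of same-numbered libraries had correlations of -0.304 in females and of -0.238, 0.416 and 0.034 in males, and 2 of 6 male libraries correlated best with their own number. With a replicate block 0 members passed over both sexes, 0 in females, 0 in males and 0 by 129 counts. With the female numbers crossed, added after the data were seen, 0 passed over both sexes.

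The libraries called heterozygous at the array were the same 2 with a 1 Mb window or at least 50 allelic counts. Depth limits the allelic values, several of which rest on fewer than 20 counts, and males had no allelic counts in the columns used here.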

Other observations

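Taf7, an intronless gene for a subunit of the general transcription factor TFIID that lies between the beta and gamma arrays, was singled out after its values were seen. It had 10.1 to 12.5 CPM in the 5 E147A/+ libraries and 13.9 to 24.1 in the 5 +/+ libraries, without overlap. The share of all genes lower without overlap is not given here. The difference was -0.68 on the log2 scale (SE 0.18, edgeR adjusted p 0.547), opposite in direction to the 10 protocadherins upstream of it, and it is the neighbouring gene that DESeq2 called lower.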
